A study of Homo sapiens with 10 samples.

Results

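Keratin, claudin, cadherin, desmosome and related junction genes were followed in 2 RNA-seq experiments on HCT116 cells, a human colorectal cancer cell line of epithelial origin. Members were chosen by symbol alone: KRT, KRTAP, CLDN and CDH followed by digits, the DSC, DSG, PKP and TJP genes, and *DSP*, *JUP*, *OCLN* and *EPCAM*, with pseudogenes and antisense genes left out. The rule found 59 genes, of which 36 were among the 13029 genes of the *ZMAT3* experiment and all 59 were in the siRNA experiment. They filled 60 of its 17642 entries, because *KRT222* is listed under 2 identifiers.

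*ZMAT3*, a p53 target gene, encodes an RNA-binding protein, and the study asked which RNAs depend on ZMAT3 and on p53. In the first experiment 3 *ZMAT3*-WT libraries were compared with 3 *ZMAT3*-KO libraries. Both came from HCT116 cells grown from single cells after CRISPR/Cas9 editing with 2 guide RNAs beside the p53 response element in a *ZMAT3* intron. The knockout therefore rests on 1 clone, and differences between clones cannot be told apart from the loss of ZMAT3. In the second experiment 2 libraries of cells transfected with a control siRNA (siCTRL) were compared with 2 of cells transfected with a pool of 4 siRNAs against p53 (sip53). Transfection was recorded as 72 hr in both groups, while the paper's text gives no time for these libraries. The paper names no drug treatment for the 10 sequenced cultures, but the *ZMAT3* clones were isolated after puromycin selection. The labels of the *ZMAT3* libraries also carry the unexplained tags EV and unt. The 2 experiments share no libraries.

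Keratins are the intermediate filaments of epithelial cells. They form obligate pairs of 1 type I and 1 type II chain, and KRT8 with KRT18 and KRT19 is the pair of simple epithelia such as the gut lining. Desmosomes anchor these filaments at the cell border through the desmosomal cadherins (DSC, DSG), the armadillo proteins plakoglobin (JUP) and plakophilins (PKP), and desmoplakin (DSP). Classical cadherins such as E-cadherin (CDH1) hold adherens junctions together, while claudins and occludin (OCLN), linked to actin by the TJP scaffolds, form tight junctions.

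The check genes followed the labels. *ZMAT3* stood at 5.00, 5.20 and 5.26 log2 CPM (the log2 of counts as a share of all counts in a library) in *ZMAT3*-WT and at 2.25, 2.34 and 2.20 in *ZMAT3*-KO. With sip53, *CDKN1A*, the p53 target that encodes p21, went from 525 and 481 FPKM (a fragment count corrected for transcript length and depth) to 34.2 and 37.7. Of 11 colorectal epithelial markers 7 were in the *ZMAT3* table and 9 in the siRNA table, where *VIL1* and *CDH17* were near 0 (at most 0.22 FPKM). Leukocyte markers were represented in the *ZMAT3* table by *CD68* alone and in the siRNA table by *CD68* and *ITGAM*, with *PTPRC* and *CD3E* in neither. The leukocyte sum was 1.61 to 2.12 CPM in *ZMAT3*-WT and 3.20 to 3.88 CPM in *ZMAT3*-KO, and 2.12 to 8.05 FPKM with siCTRL and 11.9 to 27.2 FPKM with sip53. Fibroblast and muscle markers summed to 14.7 to 15.0 CPM in *ZMAT3*-WT and 14.7 to 14.9 CPM in *ZMAT3*-KO, and to 29.97 to 38.1 FPKM with siCTRL and 21.1 to 30.7 FPKM with sip53. The latter sums hide members that moved apart. *ACTA2*, a smooth muscle actin, fell by 0.66 on the log2 scale in *ZMAT3*-KO and from 26.3 and 21.5 to 1.74 and 1.68 FPKM with sip53 (limma adjusted p = 0.0105). *DES*, the muscle filament desmin, rose from 6.16 and 4.28 to 13.3 and 21.9 FPKM with sip53. No endothelial marker was in the *ZMAT3* table, and the 1 in the siRNA table stayed at or below 0.16 FPKM. The part of these markers in the results below was not tested.

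Levels can be compared between genes only per transcript length, that is, on the FPKM scale of the siRNA experiment. The simple-epithelial keratins stood far above every other member in siCTRL cells: *KRT8* averaged 1658 FPKM, *KRT18* 990 and *KRT19* 954 (n = 2 each). The *KRT18* and *KRT19* values overlapped, while *KRT8* lay above both. Next came *EPCAM*, an epithelial adhesion molecule, at 198 FPKM, then *JUP* at 171, the claudin *CLDN4* at 159, the P-cadherin gene *CDH3* at 149 and *CLDN7* at 105. The values of *JUP*, *CLDN4* and *CDH3* overlapped, as did those of *CDH3* and *CLDN7*, so that their order could not be told apart. E-cadherin (*CDH1*) was at 43.6 FPKM, close to desmoplakin (*DSP*) at 46.7 and below desmoglein-2 (*DSG2*) at 58.5. In all, 8 of the 60 entries were at 100 FPKM or more, 16 between 10 and 100, 14 between 1 and 10, and 22 under 1.

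Keratin mRNAs were lower in *ZMAT3*-KO cells as a family, while the junction genes were spread around 0. All 11 keratins measured, and the 1 keratin-associated protein gene, had lower values in every *ZMAT3*-KO library than in any *ZMAT3*-WT library. Over all genes, the groups did not overlap, in either direction, in 64.2%. At an adjusted p under 0.05 (limma, Benjamini-Hochberg) and a change of at least 1.5-fold, 11 of the 12 keratin genes fell and none rose. Only *KRT10* missed the fold. Over all 36 members 12 fell and 1 rose, or 36.1%, against 8.96% of all 13029 genes (4.37% lower and 4.6% higher). The median log2 fold change was -1.25 over the keratins, with a range of -4.01 to -0.42, and 0.05 over the 24 junction members, against -0.0052 over all genes. At the adjusted p alone 25 of the 36 members passed, 9 higher and 16 lower, against 58.8% of all genes (28.7% higher and 30.1% lower).

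The keratins of simple epithelia took most of the keratin CPM. *KRT8*, their type II chain, was at 11.72, 11.61 and 11.61 log2 CPM in *ZMAT3*-WT and at 10.68, 10.71 and 10.73 in *ZMAT3*-KO, a log2 fold change of -0.94 ± 0.03 (SE; limma adjusted p = 1.05e-10). *KRT18*, its type I partner, was at 10.50, 10.45 and 10.49 and then at 9.66, 9.63 and 9.70, a log2 fold change of -0.82 ± 0.03 (limma adjusted p = 1.30e-10). Both genes thus fell to 52.0% and 56.7% of the *ZMAT3*-WT level, with a gap between groups that was many times the spread within them. *KRT19*, the other type I chain, fell further, from 9.64, 9.54 and 9.56 to 7.85, 7.79 and 7.85 log2 CPM, a change of -1.75 ± 0.03 (limma adjusted p = 1.82e-13). The 95% interval of its change, -1.82 to -1.68, did not meet that of *KRT18*, -0.88 to -0.76. Within each library the ratio of *KRT19* to *KRT18* CPM was 0.525 to 0.550 in *ZMAT3*-WT and 0.277 to 0.285 in *ZMAT3*-KO.

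Summed over the 11 keratins, the 3 *ZMAT3*-WT libraries held 5715, 5368 and 5419 CPM and the 3 *ZMAT3*-KO libraries 2731, 2729 and 2805 CPM. This was 0.537 to 0.572% of the CPM total in *ZMAT3*-WT and 0.273 to 0.281% in *ZMAT3*-KO, so that the groups were well apart. The libraries share 1 distribution of values, so these are shares of normalized values and not of reads. *KRT8*, *KRT18* and *KRT19* made up 98.2 to 98.4% of the sum in every library, a share of CPM that is not corrected for transcript length, so the sum says little of the other 8 keratins. The 24 junction members summed to 2153, 2170 and 2173 CPM in *ZMAT3*-WT and 2244, 2299 and 2268 CPM in *ZMAT3*-KO. In bulk RNA, fewer cells expressing a gene and less RNA per cell cannot be told apart.

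The widest differences lay in keratins of lower abundance. *KRT23*, a type I keratin, was at 4.12, 4.06 and 3.97 log2 CPM in *ZMAT3*-WT and at 0.25, -0.49 and 0.36 in *ZMAT3*-KO, which is 16.1-fold lower (log2 fold change -4.01 ± 0.17, limma adjusted p = 1.16e-09). *KRTAP2-3*, which belongs to a family of cysteine-rich proteins that cross-link hair keratins, went from 2.01, 1.88 and 1.91 to -2.36, -1.88 and -1.88, or 15.7-fold lower (log2 fold change -3.97 ± 0.20, limma adjusted p = 3.92e-09). Every *ZMAT3*-KO value of both genes lay more than 3 log2 units below the lowest *ZMAT3*-WT value. The near-identical neighbour *KRTAP2-2* can share reads with *KRTAP2-3*, so the 2 genes may not be fully separated.

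*KRT15*, a type I keratin of basal and stem-like epithelial cells, had 2.84, 2.68 and 2.81 log2 CPM and fell to -0.04, 0.20 and -0.60 (log2 fold change -2.92 ± 0.17, limma adjusted p = 2.05e-08). *KRT13*, a type I keratin of internal stratified epithelia, was at 0.37, 0.38 and -0.15 in *ZMAT3*-WT and at -2.54 in each of the 3 *ZMAT3*-KO libraries (log2 fold change -2.74 ± 0.29, limma adjusted p = 4.82e-06). These equal values are the lowest of any member. *KRT20*, a marker of differentiated intestinal cells, was low in both groups, at 1.37, 1.15 and 1.43 and then -0.20, -0.11 and -0.15 (log2 fold change -1.47 ± 0.14, limma adjusted p = 2.43e-06).

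The size of the change in these low genes depends on how low values are treated. On log2(CPM + 1), which shrinks them, the log2 fold change was -3.10 for *KRT23*, -2.03 for *KRT15*, -1.95 for *KRTAP2-3*, -0.88 for *KRT13* and -0.88 for *KRT20*, and all 5 were still called.

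*KRT80*, a type II keratin, fell from 3.70, 3.64 and 3.69 log2 CPM to 2.48, 2.47 and 2.31 (log2 fold change -1.25 ± 0.07, limma adjusted p = 8.86e-09). *KRT222*, a short keratin-like gene, fell from 2.98, 3.10 and 3.18 to 2.36, 2.10 and 2.50 (log2 fold change -0.77 ± 0.10, limma adjusted p = 2.80e-05). *KRT7*, a type II keratin of ducts and glands, fell from 0.83, 1.25 and 0.83 to 0.39, 0.13 and 0.34 (log2 fold change -0.69 ± 0.16, limma adjusted p = 0.00261). Of these 3 *KRT7* had the smallest gap between groups, and without *ZMAT3*-WT replicate 2 its log2 fold change of -0.55 no longer reached 1.5-fold. *KRT10*, a keratin of the upper epidermis, had a log2 fold change of -0.42 ± 0.05 (limma adjusted p = 2.38e-05).

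**Figure D1:**
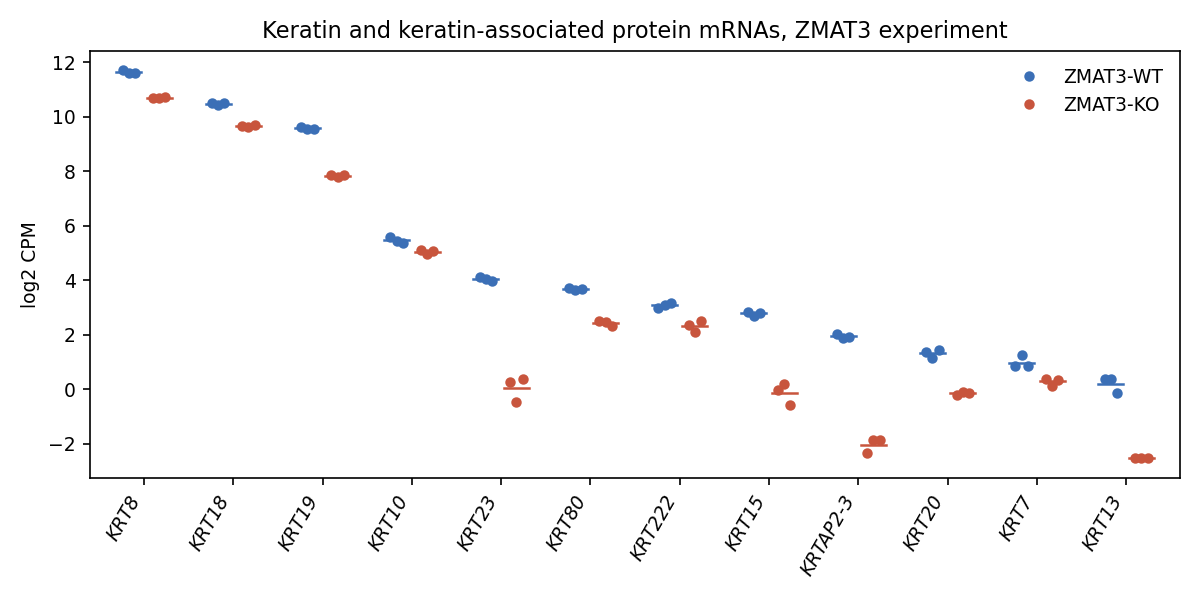
Level (log2 CPM, vertical axis) of the 11 keratins and *KRTAP2-3* in each *ZMAT3*-WT and *ZMAT3*-KO library, ordered by their *ZMAT3*-WT mean. Points are libraries (n = 3 per group) and lines are group means. In all 12 genes the *ZMAT3*-KO points lie below the *ZMAT3*-WT points, by 0.42 (*KRT10*) to 4.01 (*KRT23*) between means.

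Of the 8 desmosome genes measured, desmocollin-2 (*DSC2*) rose and none fell, a share of 12.5% that is near the 8.96% of all genes called. *DSC2* was at 5.38, 5.45 and 5.43 log2 CPM in *ZMAT3*-WT and at 6.09, 6.11 and 6.08 in *ZMAT3*-KO, 1.59-fold higher (log2 fold change 0.67 ± 0.03, limma adjusted p = 4.55e-09). Its neighbours on chromosome 18, *DSC3* and *DSG2*, had log2 fold changes of 0.41 ± 0.08 and 0.20 ± 0.03, which passed the adjusted p but not 1.5-fold. Plakophilin-2 (*PKP2*), an armadillo protein of the plaque, had the opposite sign at -0.48 ± 0.05, also under 1.5-fold. The abundant plaque proteins differed little: *JUP* by 0.13 on the log2 scale (95% interval 0.06 to 0.20) and *DSP* by 0.06 (-0.02 to 0.14).

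Among the 5 cadherins outside desmosomes none reached 1.5-fold. E-cadherin (*CDH1*) was at 6.28, 6.36 and 6.35 log2 CPM in *ZMAT3*-WT and at 6.40, 6.41 and 6.32 in *ZMAT3*-KO. These values overlapped, and the 95% interval of the log2 difference was -0.03 to 0.13. P-cadherin (*CDH3*) passed the adjusted p at a log2 fold change of 0.12 ± 0.03, as did *CDH24*, an atypical cadherin, at 0.48 ± 0.06 and *CDH22* at -0.30 ± 0.10. *CDH15* was at 1.14 to 1.59 and 1.03 to 1.29 in the 2 groups, which overlapped. *EPCAM* was at 8.51, 8.56 and 8.56 and then at 8.54, 8.54 and 8.58, with a 95% interval of -0.05 to 0.07.

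Occludin was the 1 tight junction gene of 10 to fall, and none rose, a share near the 8.96% of all genes called. *OCLN*, which encodes a membrane protein of the tight junction strand, was at 5.38, 5.51 and 5.46 log2 CPM in *ZMAT3*-WT and at 4.63, 4.65 and 4.59 in *ZMAT3*-KO, 1.78-fold lower (log2 fold change -0.83 ± 0.04, limma adjusted p = 5.93e-09). None of the 6 claudins, its partners in the strand, reached 1.5-fold. *CLDN7* passed the adjusted p with a log2 fold change of 0.25 ± 0.04 (limma adjusted p = 0.000160). *CLDN4* differed by 0.03 (95% interval -0.06 to 0.13) and *CLDN3* by -0.16 (-0.35 to 0.03), and the groups overlapped in both. Of the scaffolds, *TJP1* was at -0.18 ± 0.04 and *TJP3* at 0.27 ± 0.05, both past the adjusted p and under 1.5-fold. Counted by separation of the groups, 14 of the 24 junction members (58.3%) and all 12 keratin genes did not overlap, against 64.2% of all genes.

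**Figure D2:**
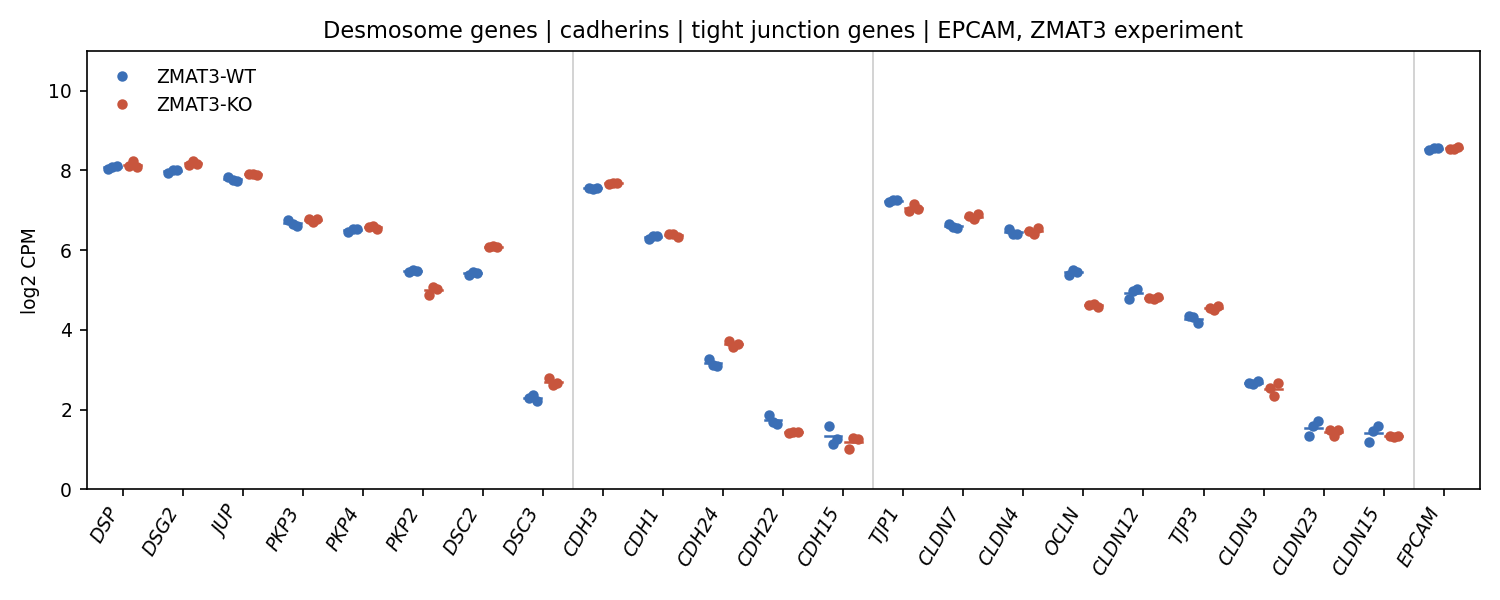
Level (log2 CPM, vertical axis) of junction members in each *ZMAT3*-WT and *ZMAT3*-KO library, from left to right the desmosome genes, cadherins, tight junction genes and *EPCAM*. Points are libraries (n = 3 per group) and lines are group means. *DSC2* is the 1 gene past both thresholds upward (0.67) and *OCLN* the 1 downward (-0.83), while *EPCAM*, *CDH1*, *DSP* and *CLDN4* overlap between groups.

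The keratin genes sit in 2 genomic clusters (hg38, GENCODE release 44), and both held lower members. In the part of the type I cluster from *KRT222* to *KRT19*, chr17:40654665-41528308, 7 of 8 members measured fell and 1 did not reach the fold. *KRT13*, *KRT15* and *KRT19* lie side by side at the end of this span, with *KRT15* at chr17:41513745-41522529 and *KRT19* at chr17:41523617-41528308. *KRT14*, *KRT16* and *KRT17* lie beyond it and were not measured in the *ZMAT3* experiment. In the type II cluster at chr12:52168996-52952906, 4 of 4 measured fell. Over all genes 4.37% fell. The genes of both counts are those already counted as a family, so this is not a separate result. Within the type II cluster *KRT18*, a type I gene, stands beside *KRT8*, and their annotated spans overlap on opposite strands. The libraries were stranded, but whether counting used the strand is not given in the sources used here. Matched by symbol, no other gene within either span was found in the *ZMAT3* experiment, though a gene listed under an older name would be missed. Neighbours outside the family were therefore not compared there. With sip53, 1 such gene in the type I span was tested, *TMEM99*, with a log2 fold change of -0.19 that was not called.

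Promoter letters were searched for 2 motifs on both strands. The first was the E-box CAGGTG, read as CACCTG from the opposite strand, which SNAI1 and ZEB1 bind in epithelial genes. The second was the AP-1 motif TGAGTCA, read as TGACTCA from the opposite strand, which is bound by JUN, a factor the study examined. The 2 motifs do not overlap. RefSeq promoters (GRCh38.p14, 250 bases before to 50 after the start) were listed for 30 of the 59 genes. Some genes have several listed starts, so the 30 genes had 41 promoters. The E-box letters were in 15 of the 41 promoters (36.6%), against 20.6% of all 35116, and in at least 1 promoter of 14 of the 30 genes (46.7%), against 24.1% of all 27305 listed genes. The AP-1 letters were in 2 of the 41 (4.88%), those of *CLDN4* and *CLDN15*, against 4.95% of all. Of the 13 genes that fell or rose in *ZMAT3*-KO, 5 had a listed promoter, and 4 of these, *KRT20*, *KRTAP2-3*, *OCLN* and *DSC2*, held an E-box while *KRT8* did not. The 4 windows are shown because they belong to genes that differed in opposite directions, with the E-box in capitals. *OCLN* has 3 such matches, of which 1 is given.
KRT20: cctgaagctaCAGGTGctccctcctg
KRTAP2-3: aggacattcaCACCTGagaacatcca
OCLN: atccgagtttCAGGTGaattggtcac
DSC2: aactttctgtCAGGTGggcctcaggc
They lie at chr17:40885195-40885220, chr17:41060094-41060119, chr5:69492504-69492529 and chr18:31102562-31102587, on the minus strand except for *OCLN* on the plus strand. The first 3 genes fell and *DSC2* rose, so the letters were found with both directions. A match is a description of the letters and not evidence of binding.

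Other genes of these structures were counted from lists of partners. Of 27 adherens and tight junction partners measured in the *ZMAT3* experiment, 2 rose and 6 fell (29.6%, against 8.96% of all genes, with a median log2 fold change of -0.0013). The nectin *NECTIN3*, an adherens junction adhesion molecule, was lowest at a log2 fold change of -2.73, and *PATJ*, a polarity scaffold, was at -0.98. *PARD6B*, another polarity gene, fell by 0.78 on the log2 scale, and the tight junction scaffold *MAGI3* rose by 0.81. The catenins that link cadherins to actin were under 1.5-fold, with *CTNNB1* at 0.19, *CTNNA1* at 0.15 and *CTNND1* at 0.05. Of 11 genes that link keratins and desmosomes or form hemidesmosomes 3 were called (27.3%, beside the same 8.96%). *ITGB4* (0.97) and *COL17A1* (0.63), both hemidesmosome genes, rose, and *EPPK1*, the keratin-binding epiplakin, fell (-0.88). *PERP*, a desmosome gene and p53 target, was at 0.35 and under 1.5-fold.

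Among 14 epithelial regulators measured, 1 rose and 3 fell (28.6%, against 8.96% of all genes). *EHF*, an epithelial transcription factor, was at 5.47, 5.51 and 5.47 log2 CPM in *ZMAT3*-WT and at -2.93, -3.61 and -3.90 in *ZMAT3*-KO (limma adjusted p = 1.82e-12). Since 1 of these values is below -3.81, the level estimated for 3 reads, the fold is not given. *HNF4A*, a hepatic and intestinal factor, fell by 1.48 on the log2 scale and *ELF3* by 0.65, while *GRHL3* rose by 3.14, from -0.52, -0.75 and -1.11 to 2.22, 2.56 and 2.25. Of 6 mesenchymal genes measured, *S100A4* (1.63) and *VIM* (0.74) rose and *FN1* (-0.88) fell (50%, against 8.96% of all genes). *VIM*, the intermediate filament of mesenchymal cells, was nevertheless low, at -0.02 to 0.53 and then 0.97 to 1.12 log2 CPM, and *ZEB1* was at -0.19 with overlapping groups.

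Knockdown of p53 gave a different picture, in which the groups overlapped for the abundant keratins. Of 60 entries 44 had a mean of at least 0.5 FPKM and were tested on log2(FPKM + 0.1), a scale that understates changes of low genes. The other 16 lay between 0 and 0.70 FPKM. At an unadjusted p under 0.05 (limma) 2 members rose and 7 fell, or 20.5% of those tested, against 15.1% of all 14274 genes (5.86% higher and 9.28% lower), and all 9 also reached 1.5-fold, against 12.6% of all genes (4.82% higher and 7.73% lower). Of these only *KRTAP3-1*, which was lower, passed the adjusted p, against 0.273% of all genes (0.035% higher and 0.238% lower). The median log2 fold change over the 44 was -0.14, against -0.04 over all genes. The 2 groups did not overlap in 24 of the 44, 54.5% against 46.4% of all genes.

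*KRT8* was at 1616 and 1699 FPKM with siCTRL and at 1455 and 1757 with sip53, so that the sip53 values enclosed the others. The 95% interval of its log2 difference was -0.62 to 0.51, which does not exclude a fall of 1.5-fold. *KRT18* was at 891 and 1090 and then 992 and 1072 (interval -0.49 to 0.62), and *KRT19* at 964 and 944 and then 760 and 968 (interval -0.72 to 0.41). The keratin sum was 3540 and 3811 FPKM with siCTRL and 3302 and 3899 with sip53. *KRT20* overlapped between groups too, at 2.31 and 3.46 and then 3.51 and 2.72 FPKM.

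The largest difference was in a keratin-associated protein. *KRTAP3-1* was at 22.4 and 22.6 FPKM with siCTRL and at 0.35 and 0.80 with sip53, 35.5-fold lower on the tested scale (log2 fold change -5.15 ± 0.36, limma adjusted p = 0.0291). The groups were far apart, the log2 fold change was -3.91 on log2(FPKM + 1), and the gene was not in the table of the *ZMAT3* experiment. *KRTAP2-3*, its neighbour in the chromosome 17 cluster, fell from 24.3 and 16.7 to 8.25 and 11.2 FPKM (log2 fold change -1.06 ± 0.27, limma adjusted p = 0.189). Without siCTRL replicate 1 its log2 fold change of -0.80 was no longer called.

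Among the low keratins, *KRT23* fell from 17.6 and 19.9 FPKM to 7.69 and 6.61 (log2 fold change -1.38 ± 0.19, limma adjusted p = 0.0869). *KRT80* fell from 7.19 and 6.31 to 2.7 and 2.78 (-1.27 ± 0.20, limma adjusted p = 0.107), and *KRT13* from 3.24 and 2.92 to 1.13 and 1.08 (-1.40 ± 0.25, limma adjusted p = 0.123). In these 3 genes the replicates lay close together and the groups apart. *KRT7* fell from 5.69 and 3.96 to 2.43 and 2.90 (-0.82 ± 0.27, limma adjusted p = 0.255), a call that was lost without siCTRL replicate 1 (-0.56), without sip53 replicate 1 (-0.69) or with the replicate number as a block. Its annotated span overlaps that of *KRT86*, which was at 0.78 and 0.74 and then 0.33 and 0.27 FPKM and was not called (limma adjusted p = 0.331), and *KRT86* is nearly identical to *KRT81*, so reads may be split among them.

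*KRT15* went the other way. It rose from 20.2 and 18.7 FPKM with siCTRL to 51.7 and 70.6 with sip53, 3.09-fold higher on the tested scale (log2 fold change 1.63 ± 0.22, limma adjusted p = 0.0837). Both sip53 libraries lay well above both controls. Its neighbours *KRT13*, which fell, and *KRT19*, which overlapped between groups, did not share this direction. *KRT5*, a basal keratin, was at 0.22 and 5.09 FPKM with siCTRL and at 8.24 and 0.36 with sip53, so it was high in 1 library of each group and low in the other.

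**Figure D3:**
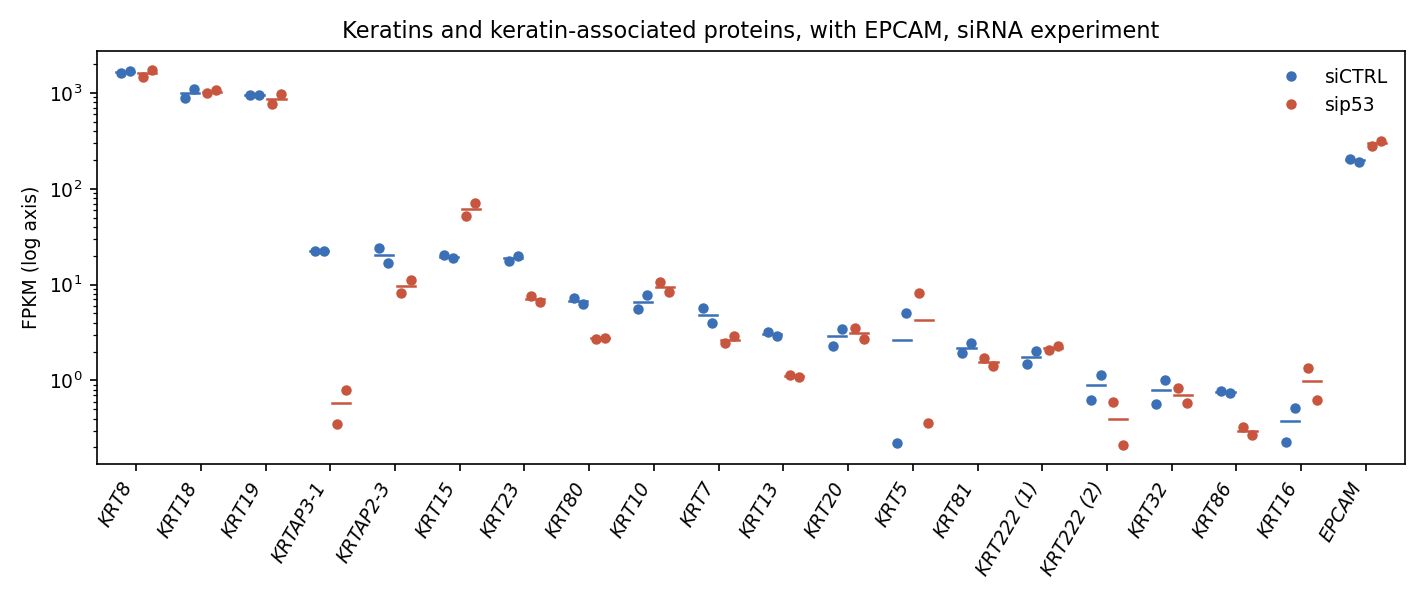
Level (FPKM, log vertical axis) of the 19 tested keratin and keratin-associated entries, ordered by their siCTRL mean, followed by *EPCAM*, in each siCTRL and sip53 library. Points are libraries (n = 2 per group), lines are group means, and the 2 *KRT222* identifiers are numbered. On the tested scale *KRTAP3-1* is 35.5-fold lower and *KRT15* 3.09-fold higher with sip53, while *KRT8*, *KRT18* and *KRT19* overlap between groups.

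Among the 25 junction members tested with sip53, *EPCAM* was the 1 that rose, beside 5.86% of all genes higher. It went from 205 and 191 FPKM to 281 and 319 (log2 fold change 0.60 ± 0.19, limma adjusted p = 0.247), but the call was lost when any 1 of the 4 libraries was left out (0.51 to 0.69) and with the replicate number as a block. None of 8 desmosome genes, 5 other cadherins or 7 claudins was called, beside 15.1% of all genes. *CDH1* was at 50.3 and 36.9 and then 37.3 and 42.1 FPKM, *DSC2* at 7.97 and 8.94 and then 10.6 and 8.71, and *OCLN* at 15.4 and 21.9 and then 24.9 and 13.4. In all 3 the groups overlapped, and the interval for *OCLN*, -0.90 to 0.88, was too wide to tell a change of the size seen in *ZMAT3*-KO cells from none.

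Partners were mostly lower where they were called. Of 27 junction partners tested with sip53, 7 fell and none rose (25.9%, against 9.28% of all genes lower and 5.86% higher), and 4 of the 7 reached 1.5-fold (7.73% of all genes lower). These were the nectins *PVRL4* (-2.46) and *PVRL1* (-1.05), the p120 catenin *CTNND1* (-0.81), which went from 90.2 and 84.6 FPKM to 50.8 and 48.6, and the adhesion molecule *F11R* (-0.69). Of these *PVRL4* was low, at 1.21 and 2.49 FPKM with siCTRL and 0.39 and 0.13 with sip53. *COL17A1*, a hemidesmosome collagen, fell from 4.70 and 3.09 to 0.77 and 1.13 FPKM (-1.92). It was the 1 called gene of 11 linkers, 9.09% beside 15.1% of all genes. None of 12 epithelial regulators was called. Of 7 mesenchymal genes, *SNAI1*, a repressor of E-cadherin, rose (1.04) and *SPARC* fell (-0.72), which is 28.6% beside 15.1% of all genes. *VIM* was at 4.43 and 4.97 and then 4.07 and 3.68 FPKM and was not called.

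Set side by side, the 2 experiments shared some keratins and parted on others. Of the 12 genes that fell in *ZMAT3*-KO cells, 5 also fell with sip53 (*KRT23*, *KRTAP2-3*, *KRT13*, *KRT80* and *KRT7*), 1 rose (*KRT15*) and 6 were not called (*KRT8*, *KRT18*, *KRT19*, *KRT20*, *KRT222* and *OCLN*). The 5 are 41.7% of the 12, beside 16.4% of the 452 genes that fell in *ZMAT3*-KO and were tested with sip53, and 9.78% of the 11385 genes tested in both experiments. *KRTAP2-3* and *KRT7* were among those that lost their sip53 call when 1 library was left out. The *KRT15* change was -2.92 ± 0.17 (log2, SE) in the knockout and 1.63 ± 0.22 with sip53. *ZMAT3* itself was lower with sip53, at 12 and 13.6 and then 3.16 and 1.97 FPKM, and in *ZMAT3*-KO cells by 2.89 on the log2 scale. *DSC2* was called in *ZMAT3*-KO cells alone and *EPCAM* with sip53 but not in *ZMAT3*-KO cells. Whether effects differed between the experiments was not tested, as the tables were normalized separately and are on different scales.

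**Figure D4:**
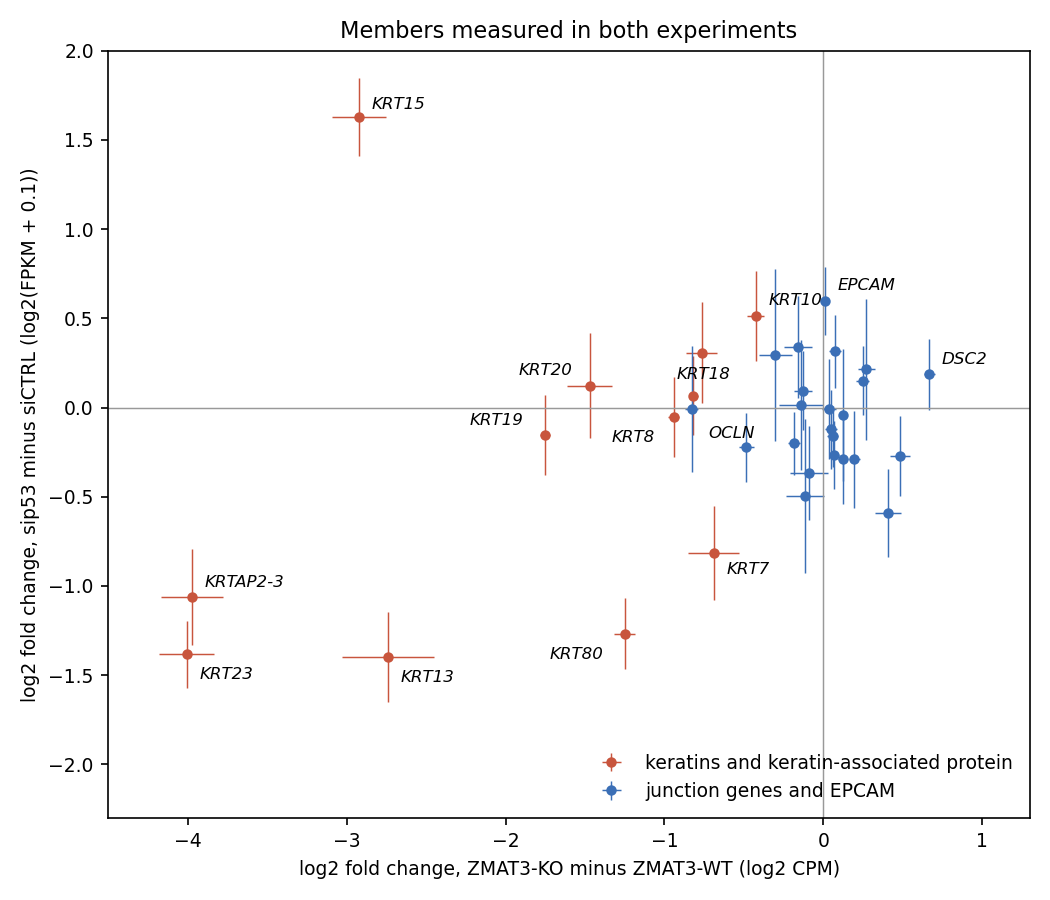
Log2 fold change in *ZMAT3*-KO against *ZMAT3*-WT (horizontal axis, log2 CPM) and with sip53 against siCTRL (vertical axis, log2(FPKM + 0.1)) for members of both tables, with the better expressed identifier of *KRT222*. Bars are standard errors (n = 3 and n = 2 per group). *KRT23*, *KRTAP2-3* and *KRT13* lie low on both axes, *KRT15* lies at -2.92 and 1.63, and *KRT8*, *KRT18* and *KRT19* lie left of 0 on the horizontal axis and near 0 on the vertical one.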

How the data were processed

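Members and gene lists were chosen with earlier results of these data known. For the *ZMAT3* experiment the authors used stranded mRNA libraries, Cutadapt 1.18, STAR 2.7.0f on hg38 with GENCODE v30, and RSEM 1.3.1, and deposited log2 CPM values. How RSEM output became log2 CPM is not given in the sources used here. All 6 libraries share 1 distribution. The siRNA table the authors deposited holds values read as FPKM, whose processing the methods do not state. The submitters' processing notes name CASAVA 1.8.2, TopHat2 2.0.8, FastQC 0.11.2, hg19 and hg38. Depth is unknown, so no count model was used. The authors' fold changes, test statistics and p-values in both tables were not used.

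Each experiment was fitted across all its genes with limma 3.58.1 in R 4.3.3 (variance trend, two-sided), the *ZMAT3* table without a filter and the siRNA table at a mean of at least 0.5 FPKM on log2(FPKM + 0.1). The study's thresholds were kept, an adjusted p (Benjamini-Hochberg) of 0.05 with 1.5-fold for *ZMAT3*-KO, and an unadjusted p of 0.05 for sip53. The scripts were tested on simulated data. All called members were named, with *EPCAM*, *CDH1*, *KRT8*, *KRT18*, *KRT19*, *KRT20*, *DSP*, *JUP*, *PKP2*, *DSG2*, *OCLN*, *TJP1*, *CLDN3*, *CLDN4* and *CLDN7* and up to 5 called genes per list. The other members were named after their values were seen, and some genes the rules would name are not reported here. P-values measure the spread between these cultures. Other thresholds, filters, pseudocounts, centring and each library left out were tried. Names of 4 and 20 pseudogene or antisense entries matched the rule and were left out.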

Additional observations from a re-analysis of the deposited data

How the results depend on the processing

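No called value changed direction under the settings run. In *ZMAT3*-KO, a 2-fold threshold left 0 members higher and 7 lower, and no fold threshold gave 9 higher, against 28.7% of all genes higher. Each library of the *ZMAT3* experiment left out gave 1 higher, 11 to 12 lower and a median of -0.20 to -0.10. *KRT7* lost its call with a pseudocount of 1 (-0.42). With sip53, the adjusted p left 0 higher and 1 lower. A mean of at least 5 FPKM, which tests fewer genes, left 4 lower and a median of -0.047, no filter gave a median of -0.12, and centring on the median gene one of -0.062. Each library left out gave 1 to 2 higher, 5 to 7 lower and a median of -0.20 to -0.16, where a lone library is assumed to vary like the other group. Of the values computed for named members under the planned settings, threshold changes aside, 249 of 251 and 217 of 226 kept their side of the threshold. With the replicate number as a block, the calls in *ZMAT3*-KO stayed at 1 higher and 12 lower, and with sip53 1 member was higher. Same-numbered libraries did not deviate together (correlations of -0.04, -0.02 and -0.09 in the *ZMAT3* experiment and -0.62 in the siRNA experiment), so the numbers were not taken as pairs. In the siRNA experiment unlike-numbered libraries correlated at 0.62, which with 2 libraries a group follows from the -0.62. Crossing the numbers, chosen after seeing the data, gave 5 higher and 13 lower with sip53. The share of all genes called was not computed for that setting, which is not among the values counted above. Nor was the share computed for the 2-fold threshold, the mean of at least 5 FPKM, the block or libraries left out. Without read counts, the depth behind low members is unknown.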

Other observations

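Processed copies of *KRT8* were listed in both tables as pseudogenes. In the *ZMAT3* experiment 4 of them were measured, and all 4 were called lower in *ZMAT3*-KO, against 4.37% of all genes. Their log2 fold changes ran from -0.99 (*KRT8P36*) to -0.85 (*KRT8P33*), beside -0.94 for *KRT8*. The most abundant, *KRT8P3*, was at 3.98, 4.01 and 4.10 log2 CPM in *ZMAT3*-WT and at 3.09, 2.94 and 3.17 in *ZMAT3*-KO. In *KRT8P36*, *KRT8P45* and *KRT8P33* the *ZMAT3*-WT means were low, at 0.64, 0.80 and 0.23 log2 CPM. With sip53, *KRT8P3* was at 10.6 and 12.2 FPKM and then 9.96 and 10.5, a log2 fold change of -0.16 that was not called, beside -0.05 for *KRT8*. The share of these values that comes from reads of *KRT8* itself was not tested.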
